A study of Rattus norvegicus with 2 samples.

Results

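The axon guidance ligands and receptors of the rat stellate ganglion are described here in its sympathetic neurons. The group holds 71 of the 25395 genes used, picked by symbol with earlier results of these data known. It comprises every listed semaphorin, plexin, neuropilin, ephrin, Eph receptor, Slit, Robo, netrin, Unc5 and netrin-G gene together with Dcc and Neo1. The single cells came from dissociated stellate ganglia, the sympathetic ganglia that supply the heart. Normotensive Wistar rats gave 1 library and SHRs (spontaneously hypertensive rats) in the prehypertensive state gave the other. Both used males 5 to 6 weeks old, and the number of animals behind each library is not given in the sources used here. For each library the authors deposited an average over the cells they had clustered as sympathetic neurons. The paper describes more than 1 population of these neurons, set apart mainly by expression of the cotransmitter neuropeptide Y. The deposited averages do not separate them. A level below is the mean count per 10000 counts of a neuron. The droplet chemistry reads the 3′ end of a transcript, so levels of different genes were not divided by gene length. With a single library of each strain there is no spread between replicates and no test, so that strain and library cannot be told apart.

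Guidance cues are proteins that steer growing axons, and many stay expressed in adult neurons, where they bear on branching, synapses and survival. Semaphorins signal through plexins, and most of the secreted class 3 members also need a neuropilin as coreceptor. Ephrins and Eph receptors act between touching cells, A ephrins being tethered by a lipid anchor and B ephrins spanning the membrane. Slits repel axons through Robo receptors, and netrins attract or repel through Dcc, neogenin and the Unc5 receptors. In the sympathetic system semaphorin signaling through neuropilins is known to shape the ganglion chain and the innervation of the heart.

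The label of the cluster and its depth were checked first. The 14 sympathetic neuron markers summed to 121.6 per 10000 in Wistar and 120.4 in SHR, but 10 of the 14 were lower in SHR and their median went from 4.01 to 2.46. The sum was held up by Prph, which encodes the neurofilament peripherin, at 58.0 and 67.6. Of the norepinephrine genes, Slc6a2, the transporter, was at 15.9 and 15.2 and Th, the first enzyme of synthesis, at 10.2 and 10.1, while Dbh and Ddc, the later enzymes, went from 10.2 to 6.36 and from 7.05 to 3.44. Markers of other cells were also present, and the sum of each list was lower in the SHR library. Their sums went from 19.7 to 11.4 for 10 satellite glia and Schwann cell genes, of which Pmp22 and Apoe made up most, and from 2.14 to 0.504 for 8 fibroblast genes. They went from 1.26 to 0.420 for 8 immune genes, from 0.285 to 0.119 for 9 endothelial genes and from 0.121 to 0.0747 for 8 smooth muscle and pericyte genes. By gene, all 10 satellite glia and Schwann cell markers and all 8 fibroblast markers were lower in SHR. So were 6 of the 8 immune, 7 of the 9 endothelial and 5 of the 8 smooth muscle and pericyte genes. At 0 were Cd3e in both libraries and Rgs5 in SHR. The lowest means repeat in discrete steps, which are the weights of a single count in individual neurons. These steps correspond to 315 neurons in Wistar and 110 in SHR. In the neurons that could be resolved, 199 and 107, the total ranged from 4093 to about 227000 counts in Wistar and from 4882 to about 233000 in SHR. A single count in the median resolved neuron added 0.000327 to a Wistar mean and 0.000881 to an SHR mean, and in the shallowest it added 0.00776 and 0.0186.

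Most guidance genes were low and only 24 of the 71 reached an average of 0.1 per 10000 over both libraries, the minimum used for ratios. The members together summed to 16.9 per 10000 in Wistar and 10.6 in SHR. The largest contribution came from Epha5, the EphA receptor, which alone made up 94.4% of the summed Eph receptors in Wistar and 90.3% in SHR. Second was the transmembrane semaphorin Sema6d with 43.4% and 39.8% of the summed semaphorins. The 37 ligand genes summed to 7.30 in Wistar and 4.85 in SHR, and the 34 receptor genes to 9.64 and 5.72.

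**Figure D1:**
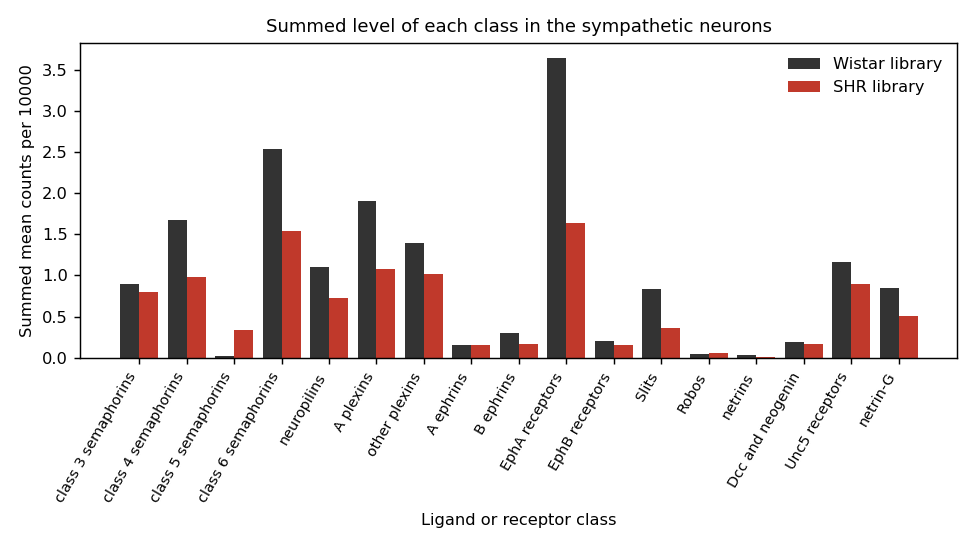
Summed mean counts per 10000 (linear axis from 0) of each ligand or receptor class in the Wistar (black) and SHR (red) library, with the single class 7 semaphorin left out. EphA receptors are the tallest class at 3.64 and 1.64, and class 5 semaphorins are the class with the much taller SHR bar, at 0.0261 and 0.334.

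Of the 24 members past the minimum, 13 were lower in SHR by at least 1.5-fold and 1 was higher. Over all 7621 genes past this minimum, 26.5% were lower by that size and 5.22% were higher. The median log2 ratio of the means, SHR over Wistar, was -0.61 for the members and -0.21 for all genes. With this general shift removed, by setting the median of all genes to 0, 9 members were lower and 1 higher, against 17.3% and 13.2% of all genes. The 4 members that no longer passed were Ephb6, Sema6d, Plxna3 and Ntng1. Sema5a and Sema6b reached 0.1 per 10000 in 1 library alone, so that they passed the minimum only through the library where they were high. No library could be left out, so these counts describe this pair of libraries.

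**Figure D2:**
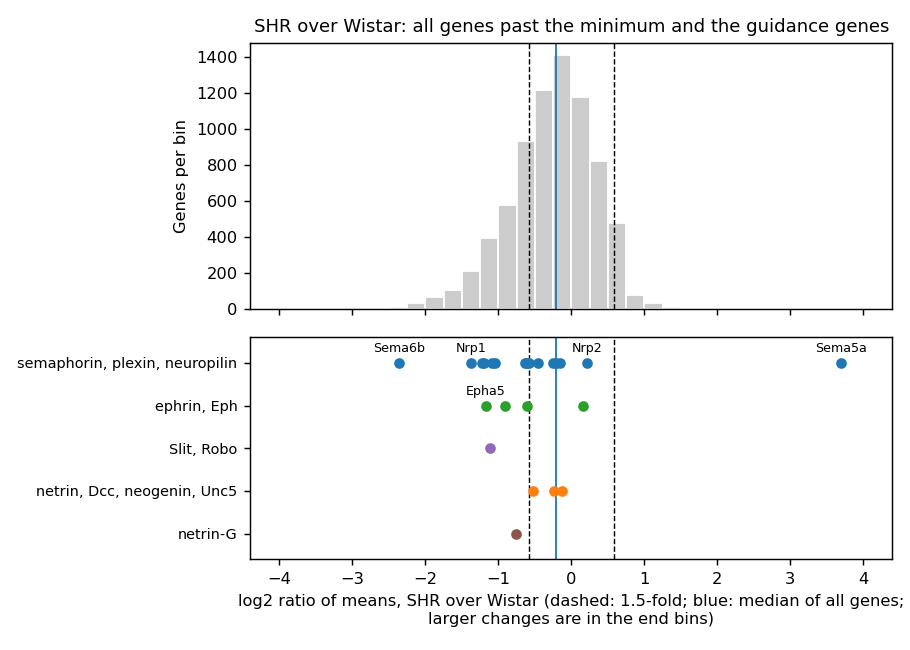
Top, number of genes in bins of the log2 ratio of means, SHR over Wistar, for the 7621 genes past the minimum. Bottom, each of the 24 guidance genes as a point in the row of its family. Dashed lines mark 1.5-fold and the blue line the median of all genes at -0.21. Most guidance genes lie left of the blue line, and Sema5a stands alone at 3.70.

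The semaphorin ligands held the greatest contrast. Sema5a, a transmembrane semaphorin with thrombospondin repeats, was at 0.0257 per 10000 in the Wistar library and at 0.333 in the SHR library, 13.0-fold higher. On the log2 scale its ratio was 3.70. It went from rank 10486 by level in Wistar to rank 3968 in SHR, and from 0.502% to 9.11% of the summed semaphorins. Even if every count had come from the shallowest resolved neurons, its mean needs at least 4 counts in Wistar and 18 in SHR. The averages do not show how many neurons held these counts, so a few neurons could have held them all. Sema5b, the other class 5 gene, was at 0.000430 and 0.000937, each matching a single count in 1 neuron.

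The other semaphorins past the minimum had ratios below 1, which for Sema3c turns above 1 once the median of all genes is set to 0. Sema6b, a ligand of A plexins, had a mean of 0.219 in Wistar and 0.0428 in SHR and was 5.13-fold lower, the largest fall of any member past the minimum. Sema6d, of the same class, went from 2.22 to 1.46, a 1.53-fold difference. The class 4 ligands Sema4c and Sema4d, which bind B plexins, were at 0.287 and 0.496 in Wistar against 0.122 and 0.216 in SHR. These values are 2.35-fold and 2.30-fold lower. Sema4f was closer between the libraries, at 0.616 and 0.515, a ratio of 0.836. The highest semaphorins under the minimum were Sema4a at 0.114 and 0.0508, Sema4b at 0.0786 and 0.0562 and Sema6c at 0.0835 and 0.0367.

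Among the class 3 semaphorins, secreted ligands that mostly act through neuropilins, Sema3c was the only one past the minimum. Its mean was 0.860 in Wistar and 0.776 in SHR, a ratio of 0.902. Sema3a and Sema3d were listed at 0 in both libraries. A count of 0 allows a mean of up to 0.000980 in Wistar and 0.00264 in SHR, taken as 3 counts at the weight of the median resolved neuron and covering counting error only. Sema3b reached 0.0229 and 0.0173, and Sema3e, Sema3f and Sema3g stayed at or under 0.00822 in either library.

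The neuropilins changed order between the libraries. Nrp1, the coreceptor of Sema3a and also a receptor for vascular endothelial growth factor, had a mean of 0.708 in Wistar and 0.272 in SHR, 2.60-fold lower. Nrp2, best known as the coreceptor of Sema3f, had a mean of 0.394 and 0.458, a ratio of 1.16. Within a library, which no scaling can change, Nrp1 over Nrp2 was 1.80 in Wistar and 0.595 in SHR. The summed endothelial and fibroblast markers were also lower in SHR, from 0.285 to 0.119 and from 2.14 to 0.504. By gene, 7 of the 9 endothelial and all 8 fibroblast markers were lower, while the endothelial Tek and Emcn were higher. The part of these markers in the Nrp1 difference was not tested.

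The plexins, the signaling receptors of semaphorins, were all at ratios under 1 where they passed the minimum, though Plxnd1 stood above the median of genes of like span. Plxna1 had a mean of 0.619 in Wistar and 0.301 in SHR, and Plxna4 one of 0.281 and 0.132, so that they were 2.06-fold and 2.12-fold lower. Plxna3, the most abundant plexin, was at 0.971 and 0.627, 1.55-fold lower. The remaining plexins past the minimum did not reach 1.5-fold. Plxnc1, the receptor of Sema7a, was just short of it at 0.486 and 0.325, a ratio of 0.669. Plxnb2 stood at 0.484 and 0.352, a ratio of 0.726. Plxnd1 stood at 0.382 and 0.329, a ratio of 0.861 and close to the shift of all genes. The 4 A plexins summed to 1.90 in Wistar and 1.08 in SHR, and the 5 other plexins to 1.39 and 1.01.

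**Figure D3:**
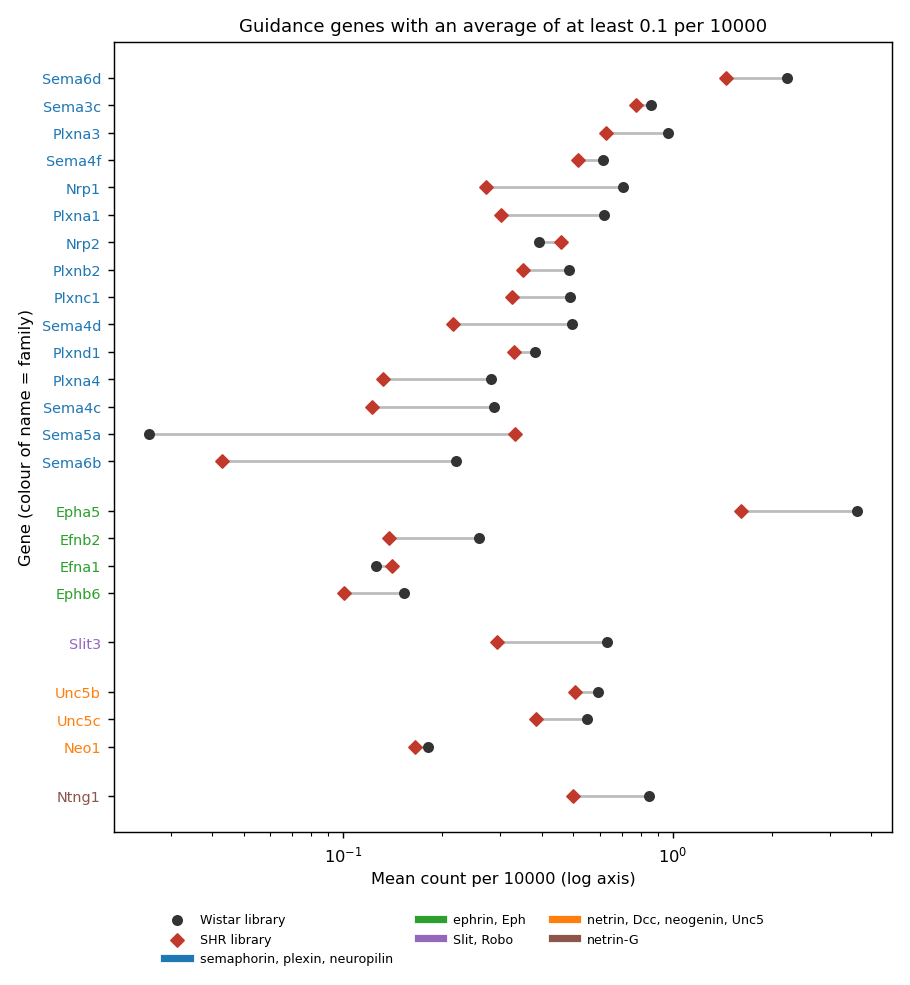
Mean count per 10000 (log axis) of the 24 guidance genes past the minimum in the Wistar library (black circles) and the SHR library (red diamonds), in family order. The red diamond lies left of the black circle in 21 genes, and to its right in Sema5a, Nrp2 and Efna1.

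In the ephrin family Epha5 dominated, with a mean of 3.63 in Wistar and 1.61 in SHR. It was 2.25-fold lower and went from rank 383 to rank 996 among all genes. The ephrins that could bind it were scarce in the same neurons, with the 5 A ephrins together at 0.153 and 0.157. Efna1 made up most of that sum, at 0.126 and 0.141, a ratio of 1.12. Efna5 was at 0.0262 and 0.0156, and Efna3 and Efna4 were listed at 0 in both libraries.

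On the B side, the ephrins summed to 0.303 in Wistar and 0.162 in SHR, and the EphB receptors to 0.202 and 0.150. Efnb2, a transmembrane ligand with roles in vessels and axons, had a mean of 0.258 in Wistar and 0.137 in SHR, 1.88-fold lower. Ephb6, a receptor without kinase activity, was at 0.153 and 0.1004, 1.52-fold lower and so just past the size used. Under the minimum, Ephb2 had 0.0316 and 0.0487 and Efnb1 had 0.0349 and 0.0244. Ephb4, the vascular partner of Efnb2, was at 0.0126 in Wistar and in SHR at 0.00117, which matched a single count in 1 neuron. Epha1, Epha3 and Epha8 were listed at 0 in both libraries.

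The Slit ligands outweighed their Robo receptors in these neurons. Slit3 had a mean of 0.634 in Wistar and 0.293 in SHR and was 2.17-fold lower. Slit2 had a mean of 0.140 in Wistar and 0.0114 in SHR, and its average was under the minimum, so no ratio is given. Its SHR mean lay below the 0.0186 of a single count in the shallowest resolved neuron, but it matched neither a single step nor a pair of steps. Slit1 was at 0.0667 and 0.0602. The fibroblast markers, which moved the same way, summed to 2.14 and 0.504, and their part in the Slit values was not tested. Of the Robos, Robo2 was at 0.0477 and 0.0557, Robo1 and Robo3 were at or under 0.00271 in Wistar and at 0 in SHR, and Robo4 was listed at 0 in both.

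Netrin receptors were present while netrins were low. Unc5b and Unc5c, which mediate repulsion by netrins, had means of 0.594 and 0.551 in Wistar and 0.506 and 0.384 in SHR, ratios of 0.852 and 0.696. Neo1, which encodes neogenin, a receptor for netrins and for repulsive guidance molecules, was at 0.181 and 0.165, a ratio of 0.912. None of these 3 genes reached 1.5-fold. Ntn1 was at 0.0229 and 0.00376 and Ntn3 at 0.0125 and 0.00320, Unc5a was at 0.0151 and 0.00438, and Ntn5 was listed at 0 in both libraries. Dcc, the classical attractive netrin receptor, was at 0.00524 in Wistar, which matched a single count in 1 neuron, and at 0 in SHR.

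Ntng1, which encodes the lipid-anchored netrin-G1, is related to netrins in sequence but does not use their receptors. Its mean was 0.846 in Wistar and 0.499 in SHR, 1.69-fold lower. Its relative Ntng2 was at 0.000451 and 0.00294.

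The 47 members under the minimum need reading with the weight of a count in mind. They comprised 9 genes listed at 0 in both libraries, 9 above 0 in Wistar alone, none above 0 in SHR alone, and 29 above 0 in both. Of all 16389 genes detected in either library, 10.6% were listed at 0 in SHR and 2.37% were listed at 0 in Wistar. The 9 genes above 0 in Wistar alone had Wistar means from 0.000263 to 0.00614, and 4 of these exceeded the 0.00264 that a count of 0 allows in SHR. Among these 4, Dcc matched a single count in 1 Wistar neuron. All 4 lay below the 0.0186 of a single count in the shallowest resolved SHR neuron. Over all members, 8 Wistar means and 6 SHR means matched the step of a single count within the rounding of the deposited values. Epha10, a receptor without kinase activity, shows why ratios were not formed for such genes. It was at 0.000234 in Wistar, equal to a single count, and at 0.0149 in SHR, equal to the sum of a pair of steps within rounding.

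**Figure D4:**
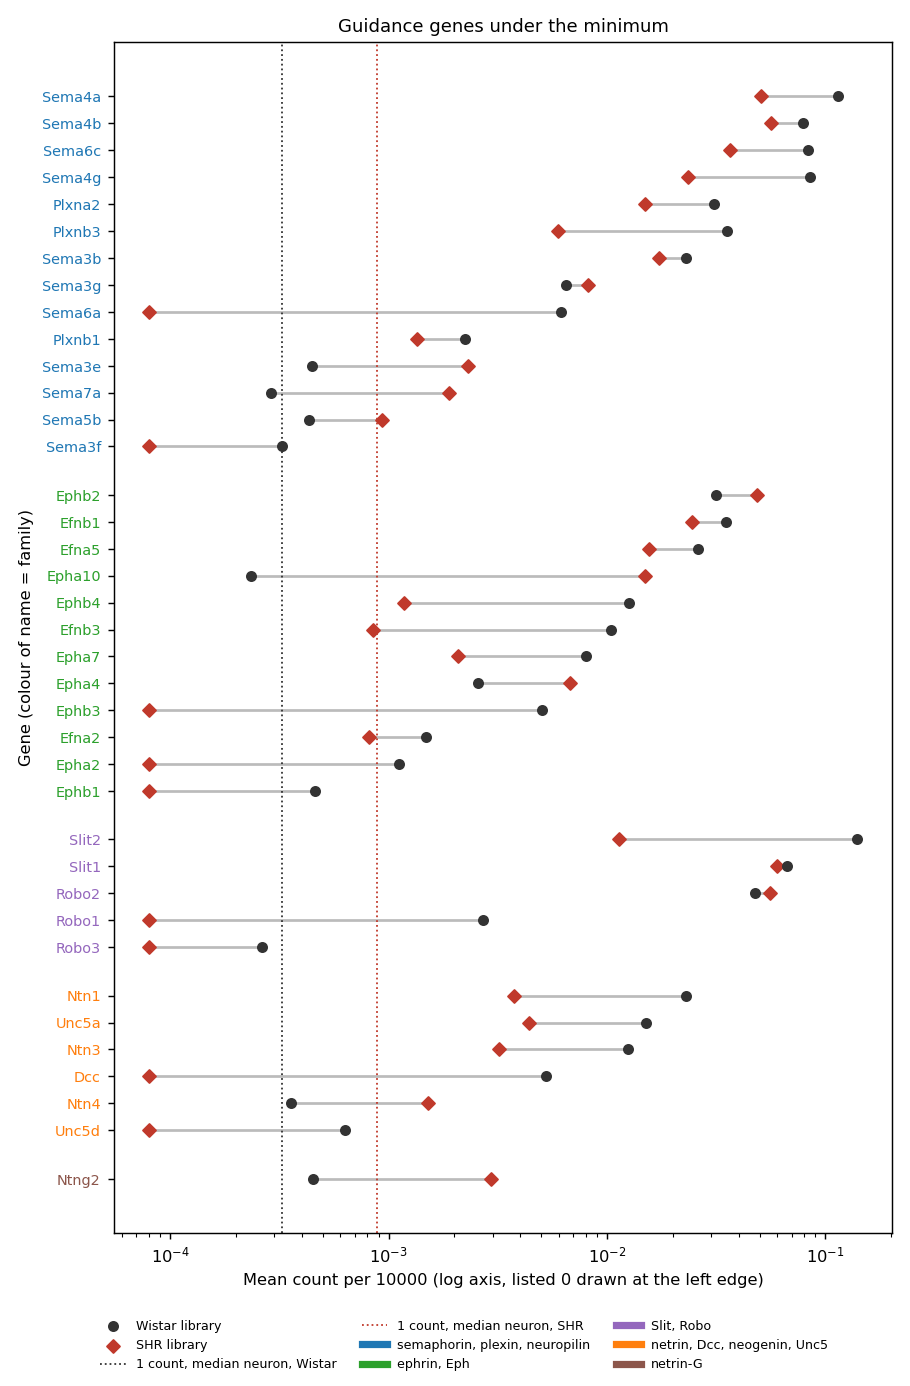
Mean count per 10000 (log axis) of the 38 guidance genes under the minimum that were above 0 in a library, Wistar as black circles and SHR as red diamonds, with a listed 0 drawn at the left edge. Dotted lines mark a single count in the median resolved neuron, at 0.000327 in Wistar and 0.000881 in SHR, and several points lie on or near them.

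Gene span moved with the difference between the libraries over the genes past the minimum, and guidance genes tend to be long. The 7291 genes that passed the minimum and have a known span were split into 10 groups of rising span. The share lower in SHR by at least 1.5-fold rose from 8.37% in the shortest to 47.1% in the longest. The longest group held 11 of the 24 members, of which 6 were lower by that size. The members included long genes at ratios near or above 1, such as Sema3c, Neo1, Nrp2 and Sema5a. They also included shorter ones well below 1, such as Sema6b and Sema4c. These genes were picked for their ratios, and Sema5a and Sema6b passed the minimum only through 1 library. Gene span as a source of the difference was not tested. Measured from the median of its own span group, the median member stood at -0.22 on the log2 scale, with 7 members lower and 2 higher by 1.5-fold, against 15.2% and 8.87% of all genes. The 7 were Sema6b, Sema4c, Nrp1, Plxna1, Sema4d, Epha5 and Efnb2, and the 2 were Sema5a and Nrp2.

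**Figure D5:**
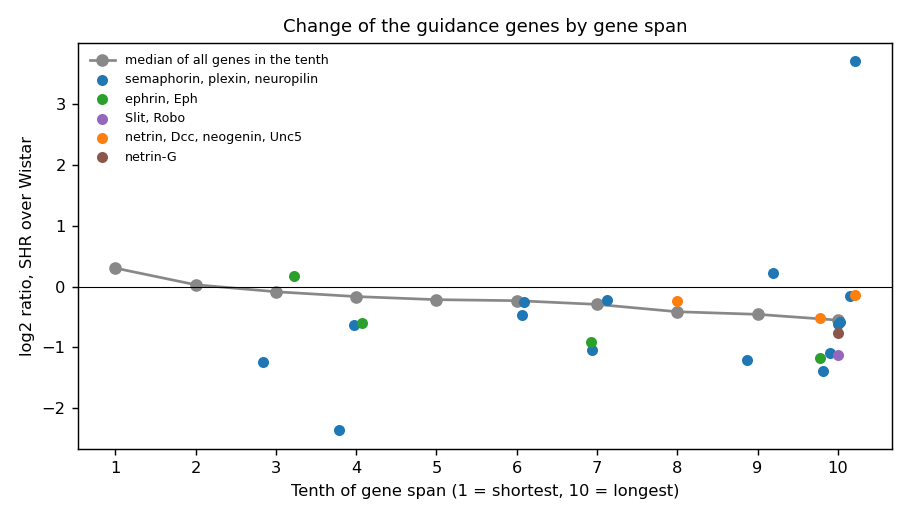
Log2 ratio of means, SHR over Wistar, of the 24 guidance genes (colored points, by family, spread sideways for visibility) in 10 groups of rising gene span, with the median of all genes in each group in gray. The gray line descends from 0.30 to -0.55, and Sema6b in group 4 lies at -2.36 below it while Sema5a in group 10 lies at 3.70 above it.

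Genes that act beneath or beside the guidance receptors were followed as a list of 60, of which 59 were listed and 40 passed the minimum. The list was chosen with earlier results of these data known. In SHR 13 of the 40 were lower by at least 1.5-fold and none was higher, with a median log2 ratio of -0.37. Their share of 32.5% lower stands beside 26.5% of all genes past the minimum. The general shift and gene span were not taken into account for this list, so its genes are given as values only. Among adhesion partners, Chl1 and Nrcam, which associate with neuropilins, went from 4.18 to 2.22 and from 2.30 to 1.36. The plexin-linked oxidases Mical1 and Mical2 went from 0.428 to 0.233 and from 0.291 to 0.146. Of the mediators and regulators of actin, Rock1, a kinase downstream of RhoA, went from 4.71 to 1.84, and Limk2, which acts on cofilin, from 0.422 to 0.0975. The adaptor Nck2 went from 0.333 to 0.177.

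Fes, a tyrosine kinase that plexins can activate, had the lowest ratio of the list, with means of 0.709 and 0.130, 5.45-fold lower. Vav2, an exchange factor recruited by Eph receptors, was 3.55-fold lower at 1.28 and 0.360. Kalrn, another exchange factor, was at 0.163 and 0.0628, and the Slit-Robo GTPase activating genes Srgap1 and Srgap3 were at 0.240 and 0.764 against 0.156 and 0.507. The GTPases did not reach 1.5-fold in either direction. Rac1 was at 2.08 and 2.73, Rhoa at 2.61 and 3.03 and Cdc42 at 3.56 and 3.74. Of the collapsin response mediators, which carry semaphorin signals to microtubules, none reached 1.5-fold, with Crmp1 at 2.68 and 2.07 and Dpysl3 at 1.06 and 1.13.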

How the data were processed

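Single cells of stellate ganglia were captured with 10x Genomics 3′ v3 chemistry, 1 library per strain. The submitters' processing notes name Cell Ranger 3.0.2, Seurat 3 and the build Rnor_6.0, while cell filters and doublet handling are not given in the sources used here. The authors deposited natural log values, ln(1 + m), m being the average over neurons of counts per 10000, to 9 decimals. Their table of fold changes, p-values and shares of cells was not used. Of 25399 lines, 4 whose name occurs more than once were dropped, and 25 names had become dates.

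Values were converted by expm1 with Python 3.11.15, NumPy 2.4.6 and pandas 2.3.3. Every member averaging at least 0.1 per 10000 is named with its ratio or fold. Of those below, the top 3 of a family and those at 0 in both libraries are named, and others named were chosen after their values were seen. A call is a ratio past 1.5-fold. The members and lists were chosen with earlier results of these data known. Neuron numbers were taken from low values shared by at least 4 genes. With 315 and 110 neurons, 97.2% of 36 such values in Wistar and 97.7% of 87 in SHR gave whole totals per neuron, within 0.02 or the rounding error, against 44.0% and 53.3% at double the number. Neurons not resolved could be shallower than the shallowest resolved. Gene spans are GRCr8 ranks, matched by symbol or synonym for 95.7% of genes past the minimum. Neuron numbers and calls were tested on simulated data, the calls only for 2-fold changes in genes at 0.5 per 10000 or more in Wistar. Smaller changes, lower levels, unequal numbers of neurons in the 2 libraries and variation between libraries or cell types were not simulated. The simulated depths included shallow neurons, which the search needs to return a number. Alternatives covered pseudocounts, minimums, scalings, span groups and sizes of change. Some values under these rules are not reported here.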

Additional observations from a re-analysis of the deposited data

How the results depend on the processing

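No paired analysis was possible because there is a single library of each strain, and for the same reason no library could be left out. There were 13 lower members and 1 higher member. The median log2 ratio of all members tested, -0.61 for the 24 past the minimum, stayed below 0 under each alternative run. Adding 1 per 10000 to both means left 1 lower and 0 higher, against 1.26% and 0.564% of all genes, with a median of -0.17, which follows from the low level of these genes. Adding 0.1 gave a median of -0.51. With no minimum, 28 of 53 members were lower and 9 higher, against 35.8% and 11.6% of all genes. With a minimum of 0.5 per 10000, which keeps 7 members, 4 were lower and 0 higher, against 15.9% and 7.0%. A size of 2-fold left 8 lower, against 11.3%. Setting the median of all genes to 0 gave a median of -0.39. Setting the median of each span group to 0 left 7 lower and 2 higher, against 15.2% and 8.87%, with a median of -0.22. Rescaling without genes of the mitochondrial genome and of ribosomal proteins gave 12 lower of 25, against 25.4%. Rescaling without the marker genes of other cells gave 13 of 24, against 26.5%. Both rescalings shift all members alike, and leaving out the markers removes no RNA of other cells from the members. Setting the median of all genes to 0 changed the sign of 2 members and the span groups that of 5, none of them past 1.5-fold. Counting error limits the genes under the minimum, and the error between libraries is not known for any gene.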
